A study of Mus musculus with 32 samples.

Results

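Hippocampal RNA from adult male mice with 1 mutant copy of *Kmt2a* (*Kmt2a*-HET) was compared with that of wild-type mice (WT). The comparison takes 4 *Kmt2a*-HET and 4 WT libraries, which are 8 of the 32 libraries of the series, and all genes of the hippocampal table other than the spike-in sequences. All animals were 129xB6 hybrids of the F1 generation, bred from 129S1/SvImJ fathers with the mutant *Kmt2a* allele and C57BL/6J mothers heterozygous for *Kdm5c*. *Kmt2a*-HET mice were *Kmt2a*+/- and *Kdm5c*+/y, and WT mice were *Kmt2a*+/+ and *Kdm5c*+/y. The mutant allele lacks exons 8 and 9 in the germline and hence in every cell type, which sets it apart from a deletion in neurons alone. The series also holds *Kdm5c*-KO mice (*Kmt2a*+/+, *Kdm5c*-/y), double mutants (DM, *Kmt2a*+/-, *Kdm5c*-/y) and amygdala libraries from the same animals, and these served only as comparisons.

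KMT2A is a lysine methyltransferase that writes methylation on lysine 4 of histone H3 (H3K4), a mark of promoters and enhancers in use. It works in a complex with WDR5, RBBP5, ASH2L and DPY30, is held on chromatin by MEN1 and PSIP1, and reads unmethylated CpG dinucleotides through its CXXC domain. Its best known targets are the Hox genes and their cofactors of the Meis family, and loss of 1 copy in humans causes Wiedemann-Steiner syndrome, a disorder with intellectual disability. KDM5C removes the mark that KMT2A writes, which is why the study combined the mutations.

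Each library held between 19322259 and 26915444 counts on genes over the 8 mice, and spike-in RNA took between 0.0503 and 0.295% of all counts. No library of either group was a copy of another, so each was counted as 1 sample. WT4 stood apart in markers of the neocortex, WT3 in markers of the choroid plexus and *Kmt2a*-HET1 in markers of the thalamus, and the values are given beside the genes concerned. Normalised counts, which are counts divided by the size factor of the library, are listed below in the order of replicates 1 to 4. Unless edgeR is named, p-values come from the Wald test of DESeq2, over 29841 genes in the hippocampus, and the spread between mice is the only error they measure.

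*Kmt2a* (chr9:44803355-44881296 on mm10, minus strand) was measured first, and no decrease of its mRNA was detected in the mutants. The WT libraries held 3191, 5919, 3654 and 4522 normalised counts and the *Kmt2a*-HET libraries 3289, 4996, 5100.4 and 6647, which is 4321 ± 1199 against 5008 ± 1372 (mean and SD, n = 4). The first 3 mutants lay inside the WT range, and *Kmt2a*-HET4 was above every WT mouse. The log2 fold change was 0.21 ± 0.24 (SE) with a 95% interval from -0.26 to 0.69 and an adjusted p by DESeq2 of 1, so that a decrease to the level of 1 copy lay outside the interval. With size factors from the spike-in RNA the value was 0.06 ± 0.58, and its interval, from -1.09 to 1.21, did include such a decrease. A count over the whole gene does not check the genotype, because mRNA that lacks 2 exons still takes part in it. The long mRNA of *Kmt2a* (16.7 kb of exons) went with a wider property of the libraries. The median deviation of long mRNAs (over 8 kb) minus that of short ones (under 2 kb), on the log2 scale and relative to the WT mean, was -0.17, 0.37, -0.16 and -0.06 in the WT libraries and -0.27, 0.10, 0.17 and 0.33 in the *Kmt2a*-HET libraries. The libraries with the highest *Kmt2a* count, WT2 and *Kmt2a*-HET4, also had the highest share of long mRNA, and the part of this in the *Kmt2a* value was not tested.

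The transcripts of *Kmt2a* were also counted one by one. The main transcript ENSMUST00000002095.10 had 2533, 5464, 3429.8 and 4144 normalised counts in WT and 3039, 4033, 4207 and 5569.9 in *Kmt2a*-HET. The less abundant ENSMUST00000114689.7 had 658, 434, 224 and 377 in WT and 219.6, 962, 878 and 1077 in *Kmt2a*-HET, higher than every WT value in 3 of 4 mutants and lowest of all in *Kmt2a*-HET1. *Kdm5c*, intact in both groups, had 1483, 1888, 1426 and 1549 in WT and 1630.3, 1621, 1589 and 1732 in *Kmt2a*-HET, with overlapping values and a log2 fold change of 0.05 ± 0.09 (-0.0574 with size factors from the spike-in RNA).

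**Figure D1:**
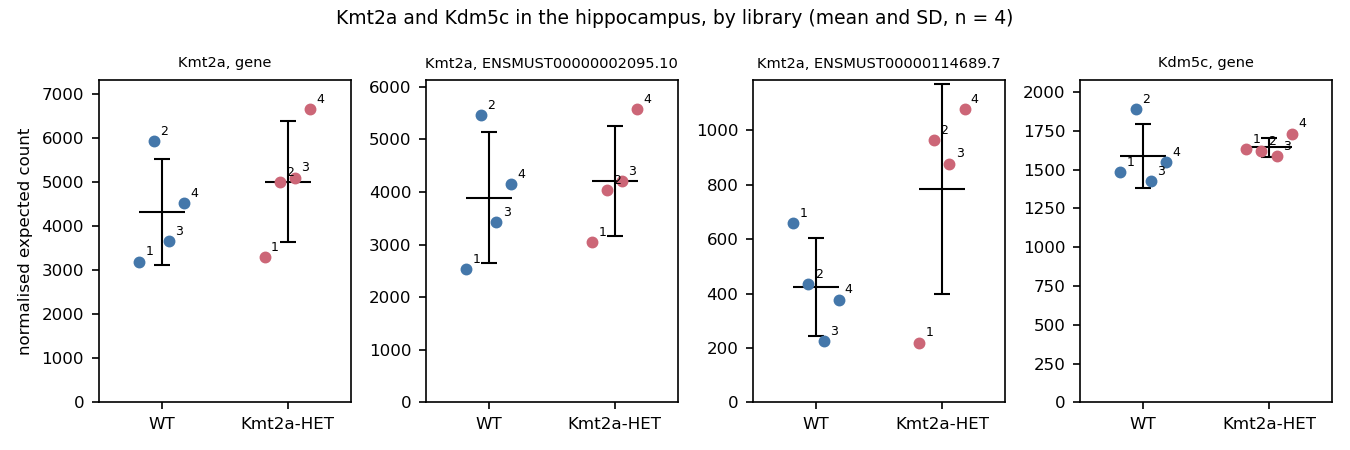
Normalised expected counts of Kmt2a, of its 2 main transcripts and of Kdm5c in each hippocampal library of WT and Kmt2a-HET mice, with replicate numbers beside the points and bars for mean and SD. Kmt2a spans 3191 to 5919 in WT and 3289 to 6647 in Kmt2a-HET, so the groups overlap.

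The question for the remaining genes was which of them differ when 1 copy of *Kmt2a* is lost. None of the 29841 genes tested passed an adjusted p under 0.1 (0%), and the smallest adjusted p by DESeq2 was 0.41, shared by *Gm14308*, *Hkdc1* and *Gm29674*. *Gm29674* has a mean of 14.6 counts, under the minimum of 20 for the genes described below, and was at 11.2, 14.4, 22.7 and 72.1 in WT and 4.39, 6.79, 0.93 and 1.23 in *Kmt2a*-HET, with WT4 far above the other WT mice (-3.20 ± 0.77). The quasi-likelihood test of edgeR called 0 genes as well, with 928 genes at an unadjusted p under 0.05 against 715 by DESeq2 (2.4% of those tested, below the 5% that the threshold itself allows). The study used an unadjusted p under 0.005 for this genotype. At that threshold 75 genes differed, 24 higher (0.0804%) and 51 lower (0.171%) in *Kmt2a*-HET, which is 0.251% of the genes tested and again below the 0.5% that the threshold allows. The excess of lower genes depended on single libraries, with 30 higher and 25 lower without *Kmt2a*-HET4, 27 and 32 without *Kmt2a*-HET1, 69 and 75 without WT2, and 23 and 128 without *Kmt2a*-HET2. It was 53 and 54 with replicates 2 to 4 only, 13 and 72 with only the groups compared and 1 and 7 with spike-in size factors. With only the groups compared, 36 of the 75 genes were again at that threshold. The median log2 fold change was 0 over all genes tested and 0.01 over the 14902 genes with a mean of at least 20 counts.

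Of the 11827 genes with a mean of at least 100 counts, 97.1% had a 95% interval that lay within a 2-fold change in either direction, and 86.4% within 1.5-fold. The median standard error of these genes was 0.13 on the log2 scale. Genes whose 4 *Kmt2a*-HET values did not overlap the 4 WT values numbered 108 higher (0.725%) and 157 lower (1.05%) of the 14902. WT4 had a part in many of the 75 genes. WT4 held the highest of the 4 WT values in 37 of the 51 lower genes (72.5%), against 35.7% of the 7011 genes of at least 20 counts that were lower in *Kmt2a*-HET by any amount. Without WT4 the number of genes at p under 0.005 was 31, of which 19 were among the 75. It was 55 without *Kmt2a*-HET4, 59 without *Kmt2a*-HET1, 81 without WT3 and 84 without WT1. It rose to 144 without WT2, 151 without *Kmt2a*-HET2 and 148 without *Kmt2a*-HET3. The fits without a library other than WT4 kept from 27 (without *Kmt2a*-HET4) to 47 (without WT1) of the 75 genes. All 75 kept their sign without WT4, and 45 of the 51 lower and 24 of the 24 higher genes had an unadjusted p under 0.05. Both follow in large part from the choice of these genes by p in libraries that mostly stay in that fit. At p under 0.005, 15 of the 51 lower and 4 of the 24 higher genes were left.

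**Figure D2:**
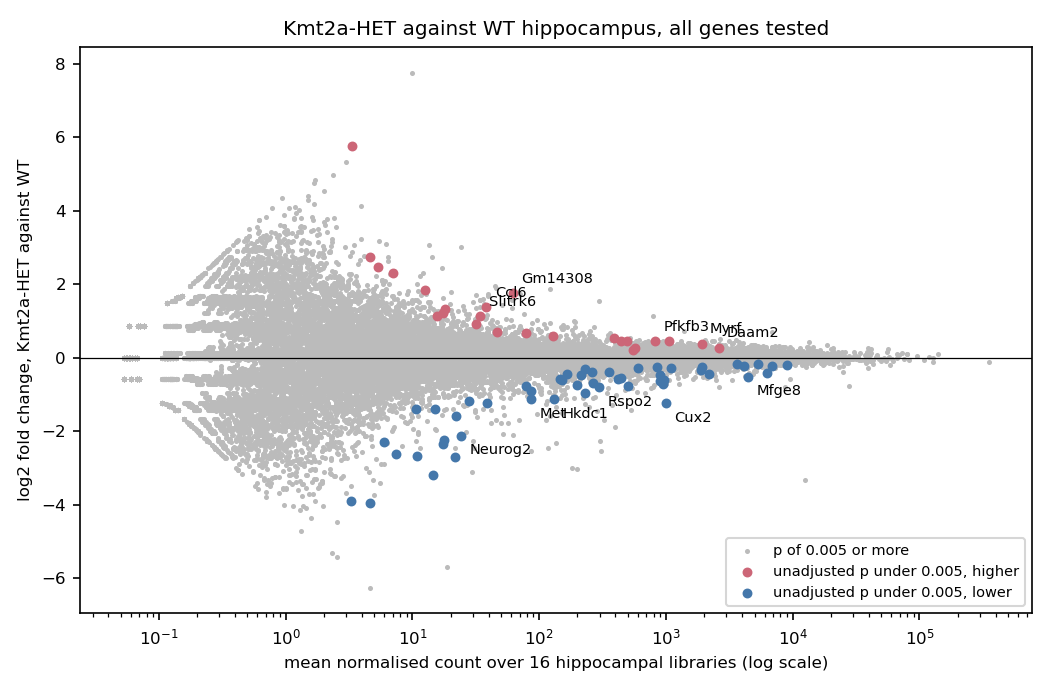
Log2 fold change of Kmt2a-HET against WT hippocampus (vertical axis) by mean normalised count over 16 libraries (horizontal axis, log scale) for all 29841 genes tested. Genes with an unadjusted p under 0.005 are coloured (24 higher, 51 lower), most of them expressed genes within 2 log2 units of 0.

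Among the protein-coding genes with a mean of at least 20 counts, the 12 with the smallest p in each direction are described by what they encode. The 12 lower genes had log2 fold changes between -0.23 and -2.12 and the 12 higher genes between 0.22 and 1.76. WT and *Kmt2a*-HET values did not overlap in 11 of the 12 lower and 6 of the 12 higher genes, which follows from the choice by p. The adjusted p by DESeq2 was 0.41 for *Gm14308* and *Hkdc1* and above 0.99 for the other 22 genes, so each value below is a description of these 8 mice. When each of the 8 libraries was left out in turn, 8 of the 24 had an unadjusted p under 0.005 in every fit (*Gm14308*, *Pfkfb3*, *Hkdc1*, *Ppp1r16a*, *Mfge8*, *Pdzd4*, *Neurog2* and *Efcab6*).

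*Neurog2* and *Cux2*, both among the lower genes, encode transcription factors of neurons. *Neurog2*, a proneural transcription factor that starts neuronal differentiation, was at 20.2, 16.3, 15.1 and 17 in WT and 2.19, 2.26, 9.32 and 1.23 in *Kmt2a*-HET. All mutants but *Kmt2a*-HET3 held almost no *Neurog2* counts, and *Kmt2a*-HET3 was under the lowest WT value (log2 fold change -2.12 ± 0.60). Those 3 mutants were under a floor of 3 counts per library, which is 0.111 to 0.155 CPM over the 8 libraries and covers counting error only. *Neurog2* passed the minimum of 20 counts, with a mean of 24.4 over 16 libraries, only through mice outside the comparison. Its means were 43.6 in *Kdm5c*-KO and 33.1 in DM, against 17.2 in WT and 3.75 in *Kmt2a*-HET. *Cux2*, a homeobox factor of upper-layer cortical neurons, was at 1065, 1237, 1170.3 and 2809 in WT and 653, 864, 626 and 528 in *Kmt2a*-HET. WT4 exceeded the next WT library by more than the other 3 differed among themselves, but every mutant was below every WT (-1.23 ± 0.37), and without WT4 the log2 fold change was -0.79.

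*Met*, *Rspo2* and *Mfge8* encode a receptor and secreted proteins. *Met*, the receptor of hepatocyte growth factor, was at 82.1, 141, 95.2 and 206 in WT and 38.4, 78.1, 95.1 and 28.2 in *Kmt2a*-HET, with *Kmt2a*-HET3 inside the WT range (-1.13 ± 0.35). *Rspo2*, a secreted enhancer of Wnt signalling, was at 276, 276, 367 and 362 in WT and 135, 205, 244 and 149.7 in *Kmt2a*-HET. All 4 mutants were below all 4 WT mice, with a log2 fold change of -0.80 ± 0.25. *Mfge8*, a secreted bridge between dying cells and phagocytes that astrocytes make, was at 5318, 4717, 4861 and 6310.4 in WT and 3717, 3703, 4141 and 3225 in *Kmt2a*-HET. The groups were apart (-0.52 ± 0.14), while 12 astrocyte markers had a median log2 fold change of 0.08.

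The other lower genes have other roles. *Hkdc1*, which encodes a hexokinase domain protein, was at 129, 139.9, 162 and 302 in WT and 54.8, 108, 95.1 and 77.3 in *Kmt2a*-HET (-1.13 ± 0.28). WT4 was again highest, and without it the log2 fold change was -0.78. *Ppp1r16a*, a regulatory subunit of protein phosphatase 1, was at 1943, 1927, 2071 and 2363 in WT and 1710.3, 1693, 1683 and 1534 in *Kmt2a*-HET (-0.33 ± 0.09). *Golga7b*, a partner of palmitoylating enzymes, was at 2305, 2273, 2442 and 3334 in WT and 1926, 2221, 1728 and 1783 in *Kmt2a*-HET (-0.44 ± 0.13). Both had their highest value in WT4 and no overlap between the groups, and without WT4 the log2 fold change of *Golga7b* was -0.29, no longer at p under 0.005. *Pdzd4*, a PDZ domain protein encoded on the X chromosome, differed by the smallest amount of the 12 but with tight groups, 4169.7, 4399, 4069 and 4734 in WT and 3549, 3605, 3699 and 3932 in *Kmt2a*-HET (-0.23 ± 0.06). *Efcab6* (-0.61 ± 0.18), *Nkpd1* (-1.19 ± 0.36) and *Tex9* (-0.91 ± 0.26) were lower with no overlap, and *Tex9* shares its locus with *Mns1* on the opposite strand. The kit kept strand, but the strand setting of the counting is not given in the sources used here, so reads of such pairs cannot be told apart with certainty.

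*Mpeg1*, *Ccl6* and *Cd38*, among the higher genes, are known from myeloid cells. *Mpeg1*, a pore-forming protein of macrophages and microglia, was at 372, 441, 429 and 388 in WT and 499, 578, 542 and 602 in *Kmt2a*-HET, with every mutant above every WT (0.45 ± 0.15). *Ccl6*, a chemokine of myeloid cells, was at 13.5, 24.9, 22.7 and 11 in WT and 21.9, 56.6, 34.5 and 73.6 in *Kmt2a*-HET, with *Kmt2a*-HET1 inside the WT range (1.37 ± 0.40). *Cd38*, an enzyme that consumes NAD, was at 101, 90.1, 127 and 52.6 in WT and 144, 124, 132 and 152 in *Kmt2a*-HET, where WT3 overlapped the mutants (0.59 ± 0.20). WT4 was the lowest, and without it the log2 fold change of *Cd38* was 0.38, no longer at p under 0.005. Of 12 microglia markers, 1 was higher and 0 lower at p under 0.05, against 1.02% higher and 1.38% lower over all genes tested, with a median log2 fold change of 0.01, and their summed count was 11038, 8305, 10282 and 8765 in WT and 10977, 9256, 10082 and 10319 in *Kmt2a*-HET. The 1 was the fractalkine receptor gene *Cx3cr1*, at 1033, 1063, 944 and 952 in WT and 1127, 1099, 1236 and 1269.8 in *Kmt2a*-HET (0.25 ± 0.11), which overlaps other genes on both strands. In bulk tissue, more cells of a type and more RNA per cell cannot be told apart.

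*Myrf* and *Daam2* are genes of the oligodendrocyte lineage. *Myrf*, the transcription factor that switches on myelin genes, was at 1351, 1708, 1882 and 1541 in WT and 2279, 2369, 2238 and 1564 in *Kmt2a*-HET. The first 3 mutants were above all WT mice and *Kmt2a*-HET4 lay among them (0.38 ± 0.13). *Daam2*, a formin of the Wnt pathway, had tight and separate groups, 2255, 2479, 2379.6 and 2219 in WT and 2827, 2818, 2677 and 2890.4 in *Kmt2a*-HET (0.26 ± 0.08). Of 15 oligodendrocyte markers 0 passed p under 0.05 in either direction (all genes tested: 1.02% higher and 1.38% lower), 12 had a positive sign and the median was 0.19. Without *Kmt2a*-HET4, 9 of the 15 were higher at that p, 0 were lower and the median was 0.37, where 0.997% of all genes tested in that fit were higher and 0.997% lower. Leaving out the mutant with the lowest level of these markers raises both values by construction, so no difference of the list is drawn from them. Their summed level was 91092, 107698, 147655 and 109647 in WT and 163333, 153743, 136636 and 81285 in *Kmt2a*-HET, above every WT mouse in *Kmt2a*-HET1 and *Kmt2a*-HET2 and lowest of the 8 in *Kmt2a*-HET4. The share of the oligodendrocyte RNA in the value of *Myrf* was not tested.

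The other higher genes have other roles. *Pfkfb3*, which makes the glycolysis activator fructose 2,6-bisphosphate, was at 794, 709, 697 and 531 in WT and 1001, 821, 919.8 and 967 in *Kmt2a*-HET with no overlap (0.44 ± 0.13). *Crtc2*, a coactivator of CREB, was at 508, 499, 552 and 502 in WT and 606, 599.8, 589.9 and 604 in *Kmt2a*-HET, a small difference with very even groups (0.22 ± 0.07). *Slitrk6*, a transmembrane protein of neurite growth, was at 20.2, 24, 27 and 9.34 in WT and 57, 48.7, 24.2 and 45.4 in *Kmt2a*-HET, with *Kmt2a*-HET3 inside the WT range (1.13 ± 0.37). *Sec14l5* (0.45 ± 0.15) and the matrix protein gene *Sned1* (0.53 ± 0.18) were higher with overlapping groups.

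*Gm14308* had the smallest p of all genes and is uncertain. It was at 31.5, 41.2, 30.3 and 39.9 in WT and 101, 81.5, 146 and 155 in *Kmt2a*-HET, above every WT value in all 4 mutants with a log2 fold change of 1.76 ± 0.42 (adjusted p by DESeq2 0.41). It lies in a cluster of closely similar zinc-finger genes on chromosome 2, between which reads can be split. Of 17 other such genes within 3 Mb, 1 was higher and 0 lower at p under 0.05 (all genes tested: 1.02% and 1.38%), with a median of 0.16. *Gm14288* was at 64.1, 89.1, 0 and 30.6 in WT and 51.5, 117, 244 and 261 in *Kmt2a*-HET, whereas *Gm14434* was at 124, 77.6, 114 and 115 in WT and 42.8, 56.6, 0 and 0 in *Kmt2a*-HET. The mutants with the most *Gm14308* and *Gm14288*, replicates 3 and 4, were the ones with 0 counts of *Gm14434*. The part of split reads in the *Gm14308* value was not tested. In the amygdala of the same mice *Gm14308* was not higher (-0.20 ± 0.54).

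**Figure D3:**
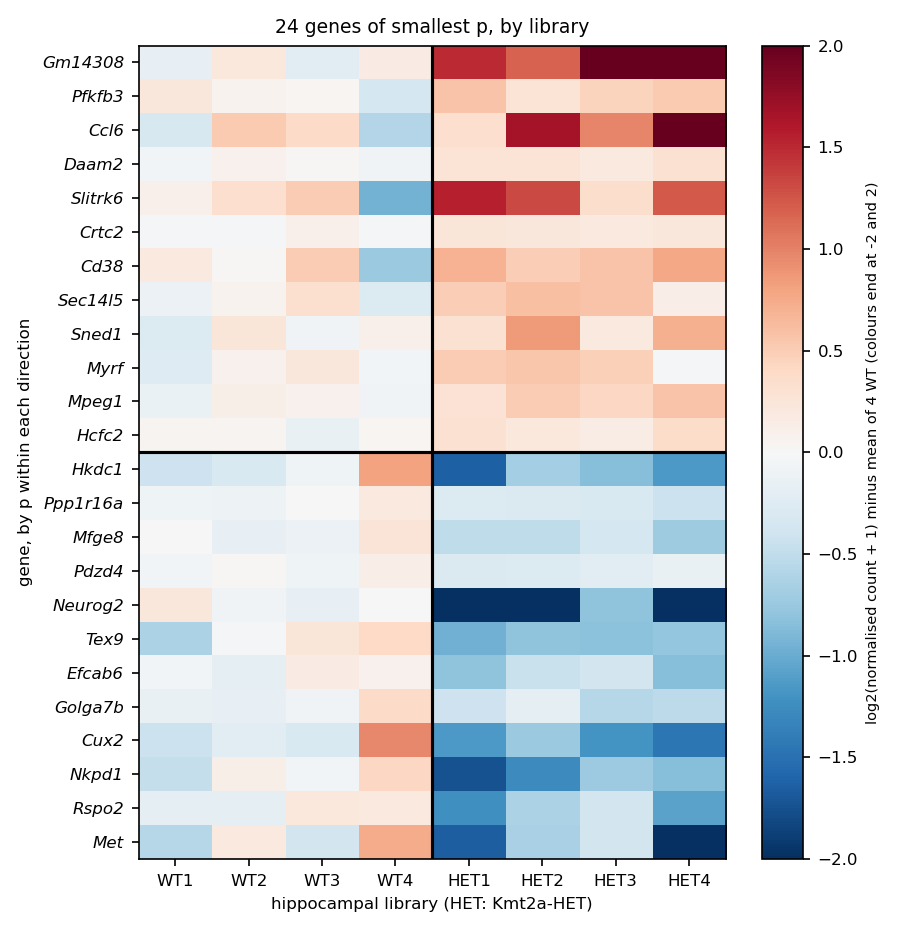
The 24 genes with the smallest p (12 higher above the line, 12 lower below it) in each of the 8 hippocampal libraries, as log2(normalised count + 1) minus the mean of the 4 WT libraries. WT4 is the highest WT library for Hkdc1, Cux2 and Met, and Kmt2a-HET4 is the palest mutant for Myrf.

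Because KMT2A reads CpG dinucleotides, the promoters of these genes were examined for CpG, counted as the letters CG in the 300 bases from 250 before to 50 after the RefSeq start, on the GRCm38.p6 build. Of 13638 protein-coding genes of at least 20 counts, 10677 had such a sequence, with a median of 21 CpG and 82.6% with at least 10. The 29 lower genes with a sequence had a median of 17 and 75.9% with at least 10. The 14 higher genes with a sequence had a median of 8.5, and 7 of them (50%) had at least 10. Of the 24 genes described, 19 had a sequence, 5 of them with more CpG than that median of 21 and 14 with fewer. The promoters of *Cux2*, with the most CpG of the 19, of *Cd38*, with the fewest, and of *Neurog2*, *Mfge8*, *Hkdc1* and *Gm14308* are printed 5′ to 3′ on the strand of the gene, with each CG in capitals. *Neurog2* (chr3:127632886-127633185) and *Cd38* (chr5:43868559-43868858) lie on the plus strand, *Cux2* (chr5:122049802-122050101), *Mfge8* (chr7:79149011-79149310), *Hkdc1* (chr10:62422408-62422707) and *Gm14308* (chr2:176636270-176636569) on the minus strand.
Cux2: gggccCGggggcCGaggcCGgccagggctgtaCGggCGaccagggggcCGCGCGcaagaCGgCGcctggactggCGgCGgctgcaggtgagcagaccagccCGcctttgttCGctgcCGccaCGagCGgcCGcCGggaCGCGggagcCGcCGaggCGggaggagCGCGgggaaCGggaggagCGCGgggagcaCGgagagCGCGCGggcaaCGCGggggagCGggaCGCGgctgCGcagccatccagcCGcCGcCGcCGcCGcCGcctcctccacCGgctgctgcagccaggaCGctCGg
Neurog2: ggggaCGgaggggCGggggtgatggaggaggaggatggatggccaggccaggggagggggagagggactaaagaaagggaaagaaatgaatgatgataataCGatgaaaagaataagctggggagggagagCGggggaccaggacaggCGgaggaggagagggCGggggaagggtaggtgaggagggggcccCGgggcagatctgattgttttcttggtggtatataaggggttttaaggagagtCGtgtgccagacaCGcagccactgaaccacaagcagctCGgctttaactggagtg
Mfge8: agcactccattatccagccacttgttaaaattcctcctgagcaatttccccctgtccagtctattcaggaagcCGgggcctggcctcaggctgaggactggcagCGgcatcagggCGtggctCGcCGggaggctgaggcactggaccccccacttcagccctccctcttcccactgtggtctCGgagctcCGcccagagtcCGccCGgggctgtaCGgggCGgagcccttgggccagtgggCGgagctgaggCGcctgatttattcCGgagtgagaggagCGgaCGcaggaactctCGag
Hkdc1: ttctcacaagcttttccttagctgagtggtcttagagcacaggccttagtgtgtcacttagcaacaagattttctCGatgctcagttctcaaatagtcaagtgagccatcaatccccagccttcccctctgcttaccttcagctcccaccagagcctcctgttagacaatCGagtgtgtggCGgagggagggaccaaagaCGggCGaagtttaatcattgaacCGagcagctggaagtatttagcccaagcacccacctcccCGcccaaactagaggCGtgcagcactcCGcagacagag
Gm14308: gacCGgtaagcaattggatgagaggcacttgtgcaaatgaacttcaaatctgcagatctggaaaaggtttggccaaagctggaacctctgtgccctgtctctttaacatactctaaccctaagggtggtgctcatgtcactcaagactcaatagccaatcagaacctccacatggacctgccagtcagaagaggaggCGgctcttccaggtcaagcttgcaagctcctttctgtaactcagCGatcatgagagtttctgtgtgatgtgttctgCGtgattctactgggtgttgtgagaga
Cd38: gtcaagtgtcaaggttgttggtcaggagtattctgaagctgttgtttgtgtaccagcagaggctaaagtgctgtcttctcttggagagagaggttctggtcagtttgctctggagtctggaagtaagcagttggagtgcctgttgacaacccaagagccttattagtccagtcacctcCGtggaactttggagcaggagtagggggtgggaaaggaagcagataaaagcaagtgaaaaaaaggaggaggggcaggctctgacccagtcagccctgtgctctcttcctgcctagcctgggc
*Cux2* holds 48 CpG in this window, *Mfge8* 17, *Neurog2* 10, *Hkdc1* 9, *Gm14308* 4 and *Cd38* 1. The other genes above the median were *Met* with 34 CpG, *Pfkfb3* with 30, *Sned1* with 29 and *Pdzd4* with 25, so that lower and higher genes stood on both sides of it. The count of letters says nothing of methylation or of binding at these promoters.

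The genes that write and erase the same mark were near WT levels. Of the 7 H3K4 methyltransferase genes, *Kmt2a* included, 0 passed p under 0.05, against 1.02% higher and 1.38% lower over all genes tested, and all 7 had a positive sign with a median of 0.15, whereas 4 of 7 were positive when size factors came from the spike-in RNA. Over 33 lists of genes in all, 12 medians changed sign with spike-in size factors, so that the direction of a median near 0 depends on the scaling. *Kmt2c* was at 0.29 ± 0.23, *Kmt2d* at 0.25 ± 0.27 and *Setd1b* at 0.15 ± 0.12 (-0.0104 with spike-in size factors). Their summed level was 17500, 26865, 17745 and 21932 in WT and 17385, 24044, 23555 and 31186 in *Kmt2a*-HET, highest in WT2 and *Kmt2a*-HET4, the same libraries as for *Kmt2a*. Of 16 subunits and partners of the KMT2 complexes, 1 was higher and 0 lower, with a median of 0.02 (-0.10 with spike-in size factors).

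The 1 was *Hcfc2*, whose product sits in KMT2 complexes. It was at 583, 585, 503 and 575 in WT and 694, 646, 623 and 725 in *Kmt2a*-HET. Every mutant was above every WT mouse (0.26 ± 0.09). The core subunit gene *Rbbp5* was at 0.18 ± 0.10 and the chromatin tether *Psip1* at 0.07 ± 0.07 (-0.0585 with spike-in size factors). The 6 H3K4 demethylase genes held 0 members at p under 0.05 in either direction, with a median of 0.03 (-0.05 with spike-in size factors), and the paralogs of *Kdm5c*, *Kdm5d* (0.24 ± 0.15) and *Kdm5a* (0.09 ± 0.16, or -0.0451 with spike-in size factors), overlapped between the groups.

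The classical targets were mostly near 0 counts or level. Of 39 Hox genes 24 had 0 counts in all 8 libraries, none reached a mean of 20 counts, and the summed Hox level was between 2.16 and 13.5 normalised counts in WT and between 2.45 and 12.1 in *Kmt2a*-HET, so that a difference was not detectable at this depth. Of the 9 Meis and Pbx family genes 1 was lower and 0 higher at p under 0.05, where over all genes tested 1.38% were lower and 1.02% higher, and 8 had a negative sign with a median of -0.08. The 1 was *Meis2*, a homeobox cofactor of forebrain neurons, at 686, 762, 798 and 932 in WT and 452, 740.2, 500.4 and 379 in *Kmt2a*-HET. All mutants but *Kmt2a*-HET2 were below every WT mouse (-0.62 ± 0.25). The neighbours of *Kmt2a* were counted as well. Of 209 genes tested within 5 Mb on chromosome 9, 3 were higher and 3 lower at p under 0.05, shares near the 1.02% and 1.38% of all genes, 0 passed p under 0.005, and the median was 0.05.

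Synaptic and activity-regulated genes were described by list because memory and dendritic spines were among the questions of the study. Of 37 genes of dendritic spines and the postsynaptic density 0 were higher and 1 lower at p under 0.05, against 1.02% higher and 1.38% lower over all genes tested, with a median of 0.02. The 1 was the scaffold gene *Dlgap3*, at 19891, 16965, 17892 and 20908 in WT and 16617, 15866, 15345 and 17599 in *Kmt2a*-HET, where the groups overlapped (-0.21 ± 0.10). Of 18 ionotropic glutamate receptor genes 1 was higher and 1 lower at that p, where the same shares of all genes apply, with a median of 0.04. *Grin2d*, an NMDA receptor subunit gene of interneurons, was at 869, 745, 727 and 967 in WT and 655, 655, 769.8 and 564 in *Kmt2a*-HET (-0.32 ± 0.13), with *Kmt2a*-HET3 inside the WT range. *Grin3b* was at 3.37, 4.79, 6.49 and 5.94 in WT and 14.3, 18.1, 9.32 and 9.81 in *Kmt2a*-HET (1.31 ± 0.57), at few counts and next to *Tmem259* on the other strand.

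Of 7 metabotropic glutamate receptor genes 0 passed p under 0.05 in either direction (median -0.04), where 1.02% higher and 1.38% lower did over all genes tested. Of 19 genes of GABA signalling 1 was lower, the receptor subunit gene *Gabra3*, at 848, 1122, 1033 and 1779.6 in WT and 744, 982, 884 and 518 in *Kmt2a*-HET. WT4 was the highest and *Kmt2a*-HET4 the lowest of the 8 (-0.61 ± 0.27). Of 20 activity-induced genes 1 was higher and 0 lower, with a median of 0.04. The 1 was the immediate early gene *Nr4a3*, at 2380.1, 2155, 2066 and 1535 in WT and 2598, 2158, 3744 and 2632 in *Kmt2a*-HET, with *Kmt2a*-HET2 inside the WT range and the other 3 mutants above it (0.45 ± 0.20).

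Markers of the neuron types of the hippocampus were all present. The CA1, CA2, CA3 and dentate granule cell lists, with 8, 6, 7 and 10 members, held 0 genes at p under 0.05 in either direction, and their medians were 0.18, 0.10, 0.08 and 0.22. Dentate markers varied widely between mutants, with a summed level of 15872, 9828, 8453 and 20766 against 14177, 13748, 10354 and 9178 in WT. Of 10 interneuron markers 2 were lower and 0 higher, where 1.38% and 1.02% of all genes tested were, with a median of -0.15. *Reln*, the secreted guidance protein of Cajal-Retzius cells and interneurons, was at 1466, 2277, 1493 and 1944 in WT and 1127, 1552, 1479.9 and 1437 in *Kmt2a*-HET, with the groups just overlapping (-0.36 ± 0.14). *Vip*, a peptide gene of interneurons, was at 146, 147, 132 and 343 in WT and 117, 163, 109 and 57.7 in *Kmt2a*-HET (-0.78 ± 0.37), where WT4 held more than every other library.

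Among 14 genes of adult neurogenesis 1 was higher and 0 lower at p under 0.05, beside 1.02% higher and 1.38% lower of all genes tested, with a median of -0.01. The 1 was the topoisomerase gene *Top2a*, a marker of dividing cells, at 27, 32.6, 23.8 and 20.4 in WT and 50.4, 41.9, 45.7 and 40.5 in *Kmt2a*-HET. Every mutant was above every WT mouse (0.79 ± 0.30). *Dcx*, a marker of young neurons, was at 245, 466, 358 and 584 in WT and 159, 349, 383 and 267 in *Kmt2a*-HET, which overlapped (-0.51 ± 0.27), and the stem cell gene *Nes* was at 0.18 ± 0.12. Of 24 neuropeptide genes 19 were tested, 1 (*Vip*) was lower and 0 were higher, and the median was -0.22.

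Markers of regions next to the hippocampus showed where single libraries differed. The 9 neocortex markers in the table had 2 members lower (1.38% over all genes tested) and 0 higher (1.02%) at p under 0.05 and a median of -0.32. Their summed level was 6301, 7913, 6617 and 11818 in WT and 5853, 9454, 5404 and 5032 in *Kmt2a*-HET, so that WT4 was the highest of the 8, and without it 1 of 9 was lower at that p with a median of -0.08. The 2 members were *Cux2* and *Rorb*, a layer 4 factor, at 425, 488, 413 and 731 in WT and 419, 422, 325 and 433 in *Kmt2a*-HET (-0.37 ± 0.18). The part of neocortical RNA in the 51 lower genes, 37 of which were highest in WT4 among the WT mice, was not tested. Of 7 tested striatal markers 1 was lower and 0 higher at p under 0.05, with a median of -0.05.

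Of 12 choroid plexus markers 3 were lower at p under 0.05, against 1.38% of all genes tested, all 12 had a negative sign, and the median was -1.84. Their summed level was 5439, 969, 25805 and 5377 in WT and 2697, 1016, 1642 and 986 in *Kmt2a*-HET. WT3 stood far above the others, while WT2 was as low as the mutants, and without WT3 0 members passed that p, with a median of -1.10. *Ttr*, which encodes the thyroid hormone carrier transthyretin of that tissue, was at 4029, 238, 22900 and 4183 in WT and 1785, 387, 732 and 216 in *Kmt2a*-HET (-3.33 ± 1.39).

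Thalamus markers went the other way, with 3 of 10 higher at p under 0.05 (1.02% over all genes tested), 0 lower and a median of 0.59, from summed levels of 2517, 2872, 3058 and 2774 in WT and 6395, 3375, 2957 and 3121 in *Kmt2a*-HET. *Kmt2a*-HET1 was the highest of the 8, and without it 0 of 10 were higher at that p with a median of 0.03. *Tcf7l2*, a transcription factor of thalamic neurons, was at 87.7, 106, 103 and 121 in WT and 445, 111, 113 and 101 in *Kmt2a*-HET, level with WT in the other 3 mutants. *Prkcd*, a kinase gene of thalamic relay neurons, was at 279, 406, 812 and 264 in WT and 1975, 490.1, 479.9 and 885 in *Kmt2a*-HET (1.12 ± 0.50). Astrocyte (12 members, median 0.08), endothelial and mural (12 members, median 0.01), ependymal (10 members, median 0.29) and blood markers (5 members, median -0.29) had 0 members at p under 0.05 in either direction.

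**Figure D4:**
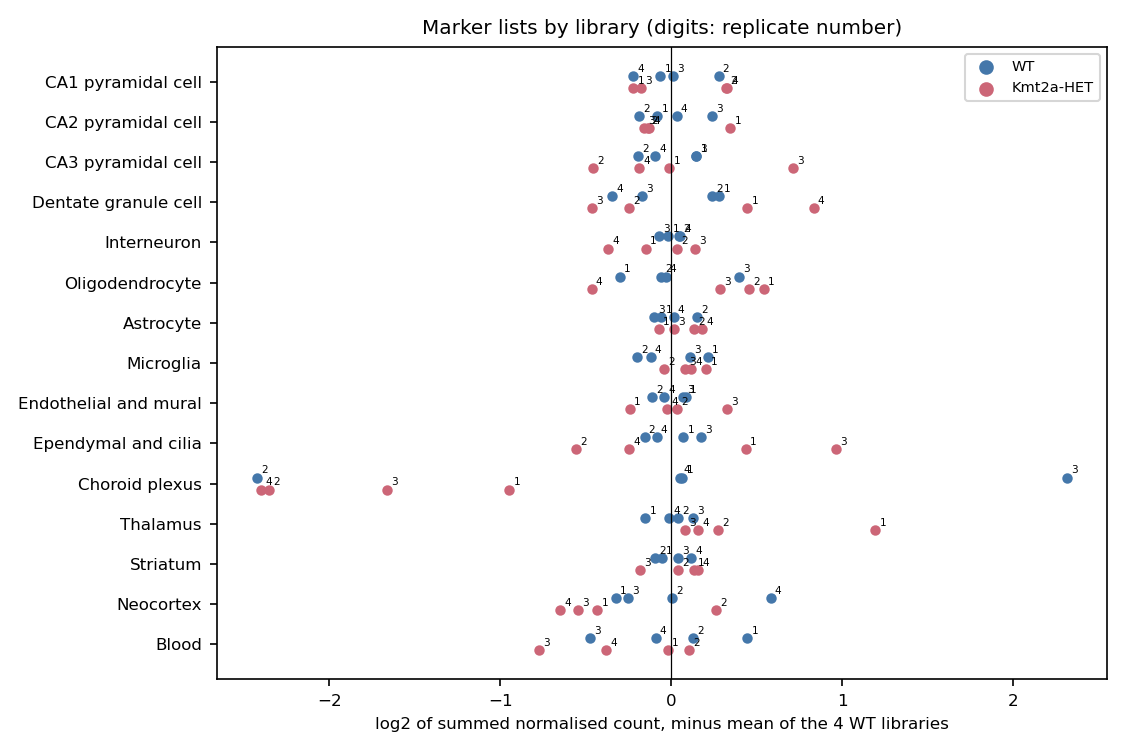
Summed normalised counts of 15 marker lists in each hippocampal library, as log2 relative to the mean of the 4 WT libraries, with replicate numbers beside the points. Choroid plexus RNA peaks in WT3, thalamic RNA in Kmt2a-HET1 and neocortical RNA in WT4, while the lists of hippocampal neurons overlap between genotypes.

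Housekeeping groups were close to WT. The 78 cytosolic ribosomal protein genes held 0 members at p under 0.05, with 73 of negative sign and a median of -0.10. Of 83 tested nuclear genes of the respiratory chain 1 was higher and 0 lower (median -0.03), which is near the shares of all genes tested (1.02% and 1.38%), and 13 mitochondrially encoded mRNAs (median -0.09) and 12 heat shock genes (median 0.04) held 0. The 1 was *Cox7a2*, a subunit gene of cytochrome c oxidase, at 858, 719, 1129 and 962 in WT and 1535, 1218, 1217 and 1023 in *Kmt2a*-HET (0.45 ± 0.15), which WT3 overlapped. In the amygdala of the same mice it was higher by a like amount (0.48 ± 0.19).

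Clustered protocadherins, the cell-surface proteins that give neurons their identity, had 4 members higher and 2 lower at p under 0.05 of 57, against 1.02% higher and 1.38% lower over all genes tested, with a median of 0.01. *Pcdha4* was at 246, 269, 249.9 and 193 in WT and 169, 216, 141 and 162 in *Kmt2a*-HET (-0.48 ± 0.15), and *Pcdhgb5* at 287, 404, 334 and 317 in WT and 351, 358, 746 and 431 in *Kmt2a*-HET (0.49 ± 0.23), mostly through *Kmt2a*-HET3. These genes share their last exons within a cluster, so the counts of single members are uncertain. Of 19 tested germline genes 1 was lower and 0 higher, with a median of 0. The 1 was *Ddx4*, a helicase of germ cells, at 65.2, 66.1, 45.4 and 31.4 in WT and 29.6, 35.1, 33.5 and 25.8 in *Kmt2a*-HET (-0.74 ± 0.30).

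The loss of 1 copy of *Kmt2a* was also measured on the *Kdm5c*-KO background, in 4 DM and 4 *Kdm5c*-KO libraries that share no library with the comparison above. Of the 75 genes, 56 (74.7%) had the same sign there, 14 of them with an unadjusted p under 0.05, and 0 had the opposite sign at that p. In that comparison 7.56% of the genes of at least 20 counts had p under 0.05. Over all 14902 genes of at least 20 counts, 62.1% had the same sign, 5.75% had it with p under 0.05 and 1.81% had the opposite sign with p under 0.05. For the 57 of the 75 genes with at least 20 counts, these values were 42 genes (73.7%), 11 genes (19.3%) and 0. The changes were smaller, with a median of 0.14 in the same direction against 0.55 in *Kmt2a*-HET against WT, where the genes had been chosen by size over error.

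Of the 24 genes described, 5 had the same direction at p under 0.05 in DM against *Kdm5c*-KO. *Hcfc2* was at 0.23 ± 0.09, *Mpeg1* at 0.38 ± 0.15 and *Slitrk6* at 0.91 ± 0.36. *Cd38* was at 0.40 ± 0.19 and *Rspo2* at -0.56 ± 0.25. The DM libraries held a mean of 574 ± 46 normalised counts of *Hcfc2* (SD, n = 4) and the *Kdm5c*-KO libraries 489 ± 20.2, and for *Rspo2* 276 ± 44.1 against 407 ± 152. *Crtc2* (-0.07 ± 0.07), *Ppp1r16a* (-0.01 ± 0.09) and *Pdzd4* (0.04 ± 0.06) were near 0 on that background. Outside the rule and chosen after their values were seen, the adhesion genes *Cdh13* and *Igsf21* and the kinase gene *Camk2d* were lower in both comparisons. *Cdh13* was at -0.46 ± 0.16 in *Kmt2a*-HET against WT and -0.42 ± 0.16 in DM against *Kdm5c*-KO, *Igsf21* at -0.64 ± 0.22 and -0.64 ± 0.22, and *Camk2d* at -0.72 ± 0.25 and -0.55 ± 0.25. In the amygdala *Cdh13* was at -0.00099 ± 0.13, *Igsf21* at -0.11 ± 0.14 and *Camk2d* at -0.07 ± 0.15, each within 1 SE of 0, and WT4 was the highest WT hippocampus for all 3.

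The difference between the *Kmt2a* effects on the 2 *Kdm5c* backgrounds was tested in the same fit. DESeq2 called 0 of 29841 genes at an adjusted p under 0.1 (0%), with 571 at an unadjusted p under 0.05 (1.91%), and edgeR called 0 with 866. Thus no gene was shown to respond to the loss of a *Kmt2a* copy differently with and without KDM5C, which does not show that the responses were alike.

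The amygdala of the same 8 mice gave a second measurement. It shares the animals but no library with the hippocampal comparison. Of the 75 genes, 64 (85.3%) had the same sign in the amygdala, 16 with an unadjusted p under 0.05 and 0 with the opposite sign at that p, against 55.8%, 2.93% and 1.37% over 14899 genes of at least 20 counts, of which 4.3% had p under 0.05 in the amygdala. For the 57 of the 75 genes with at least 20 counts, these values were 52 genes (91.2%), 15 genes (26.3%) and 0. Of the 12 lower genes described, 12 were negative there, *Tex9* only by an amount that rounds to 0, and of the 12 higher genes 11 were positive.

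At an unadjusted p under 0.05 in the amygdala, 5 of the 12 genes were lower in both regions, *Mfge8* (-0.50 ± 0.24 in the amygdala), *Met* (-0.70 ± 0.34), *Pdzd4* (-0.26 ± 0.12), *Efcab6* (-0.58 ± 0.28) and *Cux2* (-0.24 ± 0.12). Higher in both by the same measure were *Cd38* (0.92 ± 0.33) and *Sec14l5* (0.50 ± 0.22). *Neurog2* was at -0.48 ± 0.58 in the amygdala, which is within 1 SE of 0. *Filip1*, an actin regulator chosen after its values were seen, was at 485, 552, 562 and 424 in WT and 244, 258, 370 and 491 in *Kmt2a*-HET hippocampus (-0.57 ± 0.19) and at -0.73 ± 0.16 in the amygdala. Only *Kmt2a*-HET4 among the mutants reached its WT range in the hippocampus.

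The difference between the regions was tested in a fit of all 32 libraries. DESeq2 called 0 of 32039 genes at an adjusted p under 0.1 (0%), with 570 at an unadjusted p under 0.05 (1.78%), and edgeR called 0 with 953. With the mouse as a block, which the shared animals ask for, 1 gene was called, the predicted gene *Gm49388*, with 572 at an unadjusted p under 0.05.

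**Figure D5:**
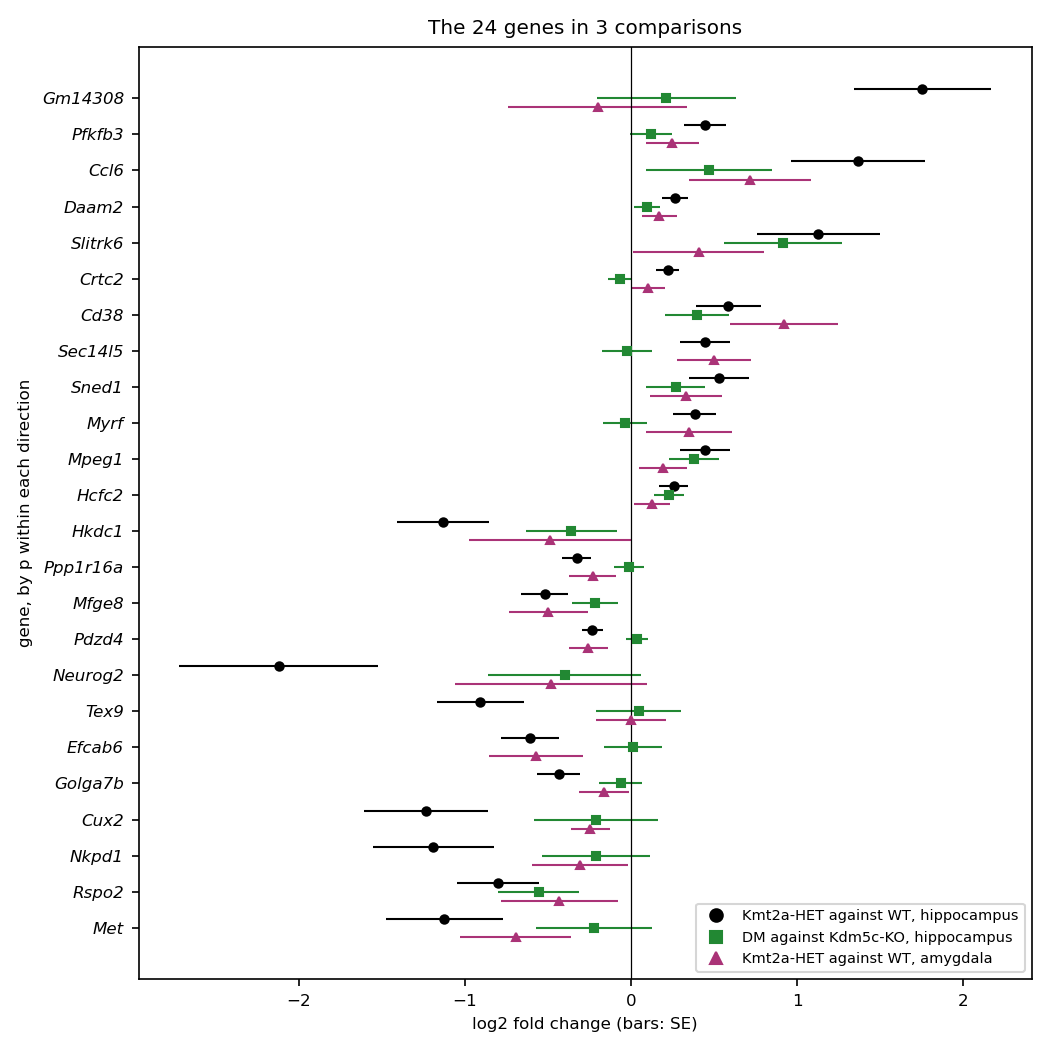
Log2 fold changes with SE of the 24 genes in Kmt2a-HET against WT hippocampus (black), DM against Kdm5c-KO hippocampus (green) and Kmt2a-HET against WT amygdala (purple). In all 3 comparisons 17 of the 24 lie on the same side of 0, and Gm14308 lies far from 0 in the first and within 1 SE of 0 in the others.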

How the data were processed

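Polyadenylated RNA of the hippocampus was sequenced from 4 *Kmt2a*-HET and 4 WT adult male mice, with 4 *Kdm5c*-KO and 4 DM mice and the amygdala of all 16. Libraries were made by the authors with a directional kit and oligo-dT priming after addition of ERCC spike-in RNA. Reads were mapped to mm10 with STAR 2.5.3a, and featureCounts (Subread 1.5.0) and DESeq2 1.14.1 are named in the submitters' processing notes. The authors deposited expected counts per gene and per transcript, part of which are not whole numbers, and the estimator is not given in the sources used here. Rows for 53715 genes and 92 ERCC sequences were present. Symbols and positions came from GENCODE M21 (53620 genes matched by identifier, 95 did not).

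Expected counts were rounded to whole numbers and tested with the Wald test of DESeq2 1.42.0 (R 4.3.3) in 1 fit of all 16 hippocampal libraries by genotype, with default size factors and filters and no shrinkage of fold changes. The threshold was a p adjusted by Benjamini-Hochberg under 0.1, with an unadjusted p under 0.005 as a looser threshold after the study. The differences between *Kdm5c* backgrounds and between regions were contrasts in fits of 16 and 32 libraries. The labels give both regions of a mouse the same animal number, so the region contrast was also fitted with the mouse as a block. Lists were described by counts and medians without a test.

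Named genes were *Kmt2a* and *Kdm5c*, the 12 protein-coding genes of smallest p in each direction with a mean of at least 20 counts over 16 libraries, up to 3 members of each list by smallest p, and up to 3 genes called in an alternative. A few genes that this rule names are not reported here. The genes, lists and tests were chosen with earlier results of these data known. Alternatives were edgeR 4.0.16 with TMM, TMM or ERCC size factors, a filter of 10 counts in 4 libraries, no filtering, shrunken fold changes, only the groups compared, replicate blocks and leaving out libraries. Between 19322259 and 26915444 counts per library set the precision. Promoter sequences came from RefSeq (GRCm38.p6).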

Additional observations from a re-analysis of the deposited data

Results flagged for a closer look

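In 15 of 186 sets of 4 libraries examined (8.06%) the highest or lowest library lay far from the other 3 by Dixon's gap test, which chance alone does in about 1 of 20 groups. Among WT libraries the highest value stood alone for *Golga7b* (3334 against 2442 in the next library), *Cux2* (2809 against 1237 in the next library), *Pknox2* (1516 against 997 in the next library), *Vip* (343 against 147 in the next library), *Pcdhb11* (132 against 100.1 in the next library) and *Coch* (385 against 88.7 in the next library). Each of these but *Pcdhb11* was highest in WT4, the library with the highest neocortex markers, whereas *Pcdhb11* was highest in WT2. The lowest WT value stood alone for *Hcfc2* (503 against 575 in the next library).

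Among *Kmt2a*-HET libraries the lowest value stood alone for *Myrf* (1564 against 2238 in the next library), *Ppp1r16a* (1534 against 1683 in the next library), *Mag* (2129.8 against 4162 in the next library) and *Rorb* (325 against 419 in the next library). For *Myrf* and *Mag*, a myelin adhesion protein gene, this was *Kmt2a*-HET4. The highest value stood alone for *Neurog2* (9.32 against 2.26 in the next library), *Tcf7l2* (445 against 113 in the next library), CA2 pyramidal cell markers, summed, (10613 against 7648 in the next library) and Thalamus markers, summed, (6395 against 3375 in the next library). *Tcf7l2* and the summed thalamus and CA2 markers were highest in *Kmt2a*-HET1, and *Neurog2* in *Kmt2a*-HET3. The difference of the *Kmt2a* effect between *Kdm5c* backgrounds or between regions passed the adjusted threshold for 0 genes in DESeq2, and 571 and 570 genes had an unadjusted p under 0.05. With the mouse as a block, 1 gene (*Gm49388*) differed between regions, and 572 genes had an unadjusted p under 0.05.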

How the results depend on the processing

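For *Kmt2a*-HET against WT, the count of 0 genes under the adjusted threshold held with edgeR, TMM or ERCC size factors, the low count filter, no filtering, shrunken fold changes and an adjusted p under 0.05. It was 2 with only the groups compared (*Gm14308* and *Vill*), 225 with a replicate block, 48 with a term for replicate 1, 1 with replicates 2 to 4 only (*Gm26649*), and 0 to 2 without single libraries: 2 without *Kmt2a*-HET replicate 1 (*Gm26649* and *Gm5831*), 1 without *Kmt2a*-HET replicate 3 (*Kit*) and 2 without *Kmt2a*-HET replicate 4 (*Filip1* and *Myrf*). The 225 genes of the block had a median of 0.38 counts, and the 48 genes of the term for replicate 1 had a median of 0.47 counts. With the low count filter the block called 0, as it did with edgeR, an alternative chosen after seeing the data. The replicate numbers do not pair these mice: the deviations of same-numbered WT and *Kmt2a*-HET libraries correlated at 0.38, 0.07, 0.05 and -0.32, and not every library correlated best with its own number.

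At an unadjusted p under 0.005 the 75 genes became 8 with ERCC size factors (median log2 of all genes -0.06), 321 with a replicate block, 156 with a term for replicate 1, 18 at p under 0.001, and 31 to 151 without single libraries (31 without WT4, 144 without WT2, 151 without *Kmt2a*-HET2 and 148 without *Kmt2a*-HET3). The *Kmt2a* log2 fold change stayed positive and uncalled in every alternative, at 0.05 to 0.40 without single libraries. Genes that differed between *Kdm5c* backgrounds numbered 170 with a replicate block, 3 with the block and low count filter (*Scgb1a1*, *2210418O10Rik* and *Gamt*), 27 with a term for replicate 1 and 0 to 2 without single libraries (2 without *Kmt2a*-HET replicate 1, 1 without *Kdm5c*-KO replicate 2 and 1 without DM replicate 3, the last 2 kinds chosen after seeing the data), and only the groups compared could not be fitted. Genes that differed between regions numbered 10 with a replicate block, 2 with the block and low count filter (*Gm49388* and *Gm37206*), 4 with a term for replicate 1, 1 with replicates 2 to 4 only, 1 with a block by mouse and 0 to 1 without single libraries (1 without WT replicate 1 and 1 without WT replicate 4). The cause was not tested.

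Single genes changed sign with ERCC size factors for *Kdm5c* (-0.0574), *Setd1b* (-0.0104), *Kdm5a* (-0.0451), *Psip1* (-0.0585) and *Homer1* (-0.0497), without WT1 for *Kdm5a* (-0.00149, with 0.213 the highest without a single library), without WT4 for *Coch* (0.188, with -1.18 the lowest without a single library) and with replicates 2 to 4 only for *Tcf7l2* (-0.0285). Over the genes named, 139 alternatives lost p under 0.005, 18 gained it, 8 changed sign and 1371 did none of these. Over the lists, 628 medians moved by less than the spread between libraries and 30 by more. No Hox gene was left by the low count filter, so their median could not be given there. Depth limits the Hox genes and other genes of few counts.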
